A study of Mus musculus with 30 samples.

Results

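The 4 neurofilament genes Nefl, Nefm, Nefh and Ina were taken from the 21412 genes of a hippocampus RNA sequencing table by their Ensembl identifiers, and all 4 had a row. They were followed over the 6 treatment groups of a study of dietary methylmercury (MeHg) and selenium in male BALB/c mice. There were 5 mice in each group, 30 in all, with 1 library per mouse. The Ctr group had feed with no added mercury, the LD group a low dose of 0.28 mg Hg per kg feed and the HD group a high dose of 5 mg Hg per kg feed. By the study's methods these mice were 2 to 3 weeks old at arrival and ate the diets for 11 weeks. The labels Se_Ctr, Se_LD and Se_HD are read here as the corresponding exposures with selenium, which the title of the series names as selenium-methionine. Doses and durations of those diets are not given in the sources used here. The design asks whether mercury, selenium or their combination shifts a gene's messenger level.

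Neurofilaments are the intermediate filaments of mature neurons, and they fill large axons and set their calibre. Nefl encodes the light subunit, which can start filaments by itself, while Nefm and Nefh encode the medium and heavy subunits, whose long tails project sideways and are heavily phosphorylated. Ina encodes alpha-internexin, which appears early in neuronal development and joins the other subunits in filaments of the adult brain. Neurofilament light protein in blood is in wide use as a sign of axonal injury.

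None of the 4 genes differed between methylmercury-fed and control mice beyond the spread between mice, with or without selenium. The clearest feature of the data was a pair of mice, LD replicate 2 and HD replicate 1, with Nefm at 16862 and 14708 normalized counts, while the other 28 mice lay between 3433 and 7483. The tails of the subunits are rich in glutamate and lysine codons, so that the messengers carry stretches made almost wholly of the purines A and G. The stretches are shown here because the members' excess in those 2 libraries is set beside them further on. For each member the most purine-rich 60-base window of the coding sequence is given 5′ to 3′ in the sense of the messenger. Capitals mark the longest run with no pyrimidine, and the bases were read from the NCBIM37 build of the mouse genome with the GENCODE annotation of that build. The Nefl window is in exon 3 at chr14:68704802-68704861 on the plus strand and holds 57 purines.
Nefl: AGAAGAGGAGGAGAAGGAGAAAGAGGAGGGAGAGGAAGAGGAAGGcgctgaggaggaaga
The Nefm window is in exon 3 at chr14:68739054-68739113 on the minus strand and holds 58 purines.
Nefm: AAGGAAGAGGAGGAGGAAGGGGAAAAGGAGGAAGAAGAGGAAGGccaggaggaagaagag
The Nefh window is in exon 4 at chr11:4841132-4841191 on the minus strand and holds 56 purines.
Nefh: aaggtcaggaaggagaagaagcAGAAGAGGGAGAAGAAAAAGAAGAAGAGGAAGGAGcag
The Ina window is in exon 3 at chr19:47097970-47098029 on the plus strand and holds 49 purines.
Ina: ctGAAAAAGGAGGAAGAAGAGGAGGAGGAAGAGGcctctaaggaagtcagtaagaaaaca

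The windows of Nefl, Nefm and Nefh are at least 93.3% purines and that of Ina 81.7%. The total extent of such stretches also differs between the genes. Extent was measured as the bases of a transcript that lie in any 60-base window with at least 85% purines. It was 556 bases in Nefm, 16.7% of its transcript of 3334 bases. It was 212 of 3380 bases in Nefl, 106 of 3994 bases in Nefh and 0 of 3240 bases in Ina. Among 17065 genes with a coding transcript, 10.6% held any such window and 6 had more such bases than Nefm. This measure was chosen after the values were seen.

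Nefl and Nefm are neighbours on chromosome 14. Nefl spans positions 68701920 to 68707152 on the plus strand with 4 exons, and Nefm spans 68700647 to 68742903 on the minus strand with 2 annotated transcripts. The last exon of the longer-reaching Nefm transcript lies across exon 1 of Nefl on the opposite strand. The overlap of 1108 bases makes up 32.8% of the exonic bases of Nefl. The libraries were made with a stranded kit, but the strand setting of the authors' counting is not given in the sources used here. How reads in the overlap were divided is therefore uncertain. Nefh lies at 4838757 to 4848067 on the minus strand of chromosome 11, and Ina at 47089188 to 47099817 on the plus strand of chromosome 19.

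Reads on genes ranged from 5768208 to 11510521 per library. All 10 listed markers of hippocampal pyramidal and granule neurons were measured, with a summed level of 34401 to 74488 normalized counts over the 30 mice. Tissues next to the hippocampus varied widely within groups. The summed level of 10 choroid plexus markers ran from 277 to 38308, and that of 10 thalamus markers from 2314 to 6756. The values come from whole tissue, in which fewer cells of a type and less messenger per cell cannot be told apart. The p-values of the fits rest on the spread between mice within groups, pooled over all groups of a fit and moderated across genes. Those of the exact permutation tests rest on relabelling the mice of the groups compared.

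Nefm was the most abundant member and Nefh the least. Per kilobase of transcript, the mean levels over 30 mice were 1931 ± 817 (SD, n = 30) normalized counts for Nefm, 1126 ± 151 for Nefl, 377 ± 43.3 for Ina and 150 ± 24.3 for Nefh. This order held in all 30 libraries. The narrowest step was that of Nefm over Nefl, whose ratio per kilobase ran from 1.13 to 3.22. Nefl stood 2.34 to 4.17 times above Ina, and Ina 1.76 to 3.14 times above Nefh. The order rests on 1 transcript length per gene, and for Nefm and Nefl it also rests on the undivided overlap.

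Nefl, the light subunit, had a coefficient of variation of 13.4% over the 30 mice. Its normalized counts were 3608, 3559, 3642, 4089 and 3183 in the Ctr mice. They were 3381, 5388, 3708, 3966 and 4290 in the LD mice and 4636, 3629, 4097, 4313 and 3099 in the HD mice. The LD and HD groups overlapped the Ctr group, and the highest value of all 30 was that of LD replicate 2. With selenium the counts were 4088, 3402, 3584, 4251 and 3795 in Se_Ctr, 3645, 4135, 3312, 3296 and 3990 in Se_LD, and 3521, 4032, 4148, 2808 and 3603 in Se_HD. The 3 selenium groups overlapped each other throughout. The group means ran from 3616 ± 322 in Ctr to 4146 ± 770 in LD (SD, n = 5 each). The fitted log2 fold change was 0.12 for HD against Ctr (95% interval −0.14 to 0.38) and 0.18 for LD against Ctr (−0.08 to 0.45). Without HD replicate 1 and LD replicate 2, the mice with high Nefm, these were 0.059 (−0.17 to 0.29) and 0.084 (−0.15 to 0.32). With selenium it was −0.09 for Se_HD against Se_Ctr (−0.29 to 0.11) and −0.06 for Se_LD against Se_Ctr (−0.26 to 0.14).

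Nefm, the medium subunit, spread most in the LD and HD groups, through 1 mouse in each. Its normalized counts were 6159, 4626, 6570, 5810 and 5071 in the Ctr mice. They were 4879, 16862, 7046, 6723 and 6607 in the LD mice and 14708, 6771, 6961, 6472 and 4717 in the HD mice. In each dosed group a single mouse lay far above the rest, which ended at 7046 in LD and 6961 in HD. The selenium groups held no such mouse. Their counts were 6762, 5002, 5211, 4755 and 6396 in Se_Ctr, 7483, 5853, 4890, 5128 and 5311 in Se_LD, and 5254, 6267, 6570, 3433 and 4831 in Se_HD. The lowest Nefm and the lowest Nefl of the series were both in Se_HD replicate 4. The SD was 4792 around a mean of 8423 in LD and 3895 around a mean of 7926 in HD, against 793 around 5647 in Ctr. Without LD replicate 2 and HD replicate 1 the means were 6313 ± 974 and 6230 ± 1029 (SD, n = 4 each).

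The Nefm difference from control depended on those mice for its size. The fitted log2 fold change of HD against Ctr was 0.39 (95% interval −0.18 to 0.95), and it was 0.14 (−0.16 to 0.43) without the pair. For LD against Ctr it was 0.44 (−0.12 to 1.01), and 0.16 (−0.14 to 0.46) without the pair. With selenium it was −0.12 (−0.42 to 0.19) for Se_HD against Se_Ctr and 0.02 (−0.28 to 0.33) for Se_LD against Se_Ctr.

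Nefh, the heavy subunit and the least abundant, had normalized counts of 753, 493, 627, 574 and 524 in the Ctr mice. They were 538, 740, 553, 580 and 782 in LD and 733, 524, 563, 579 and 502 in HD. The 3 groups covered nearly the same range, with the top of HD in HD replicate 1. Without that mouse HD averaged 542 ± 34.9 (SD, n = 4). The fitted log2 fold change was −0.03 for HD against Ctr (95% interval −0.31 to 0.25) and 0.10 for LD against Ctr (−0.18 to 0.38). Without HD replicate 1 and LD replicate 2 these were −0.12 (−0.39 to 0.15) and 0.04 (−0.23 to 0.31). With selenium the counts were 671, 539, 614, 442 and 597 in Se_Ctr, 822, 678, 525, 690 and 579 in Se_LD, and 520, 599, 621, 459 and 521 in Se_HD. Se_LD was the highest group at 659 ± 114 and Se_HD the lowest at 544 ± 66.0 (SD, n = 5 each), with 3 of 5 Se_HD mice below every Se_LD mouse. Se_HD against Se_LD gave a log2 fold change of −0.27 (95% interval −0.51 to −0.02). The limma contrast had an unadjusted p of 0.0345 and an adjusted p of 0.947. It was not called, because the F test over the 3 selenium groups had a p of 0.086, and the exact permutation test gave p = 0.0952. The summed level of the 10 thalamus markers was 6756 in Se_LD replicate 1 and 6619 in Se_LD replicate 4, the mice with the highest Nefh of their group. It was 2714 in Se_LD replicate 2, whose Nefh of 678 was close to that of replicate 4. It was 2427 to 3785 in Se_HD. In LD it was 6058 in replicate 5 and 2509 in replicate 2, the mice with the highest Nefh of that group, and in HD it was 2603 in replicate 1, the mouse with the highest Nefh of HD. In Se_LD against Se_Ctr 5 of the 10 thalamus markers rose by the unadjusted rule given below and 0 fell, with a median log2 fold change of 0.64. By that rule 1.46% of all genes were called in either direction, and 0 of the 10 markers had an adjusted p under 0.05. The part of thalamus tissue in the Nefh values was not tested.

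Ina, alpha-internexin, varied little under selenium. Its normalized counts were 1364, 1070, 1351, 1456 and 1152 in Ctr, 1153, 1384, 1199, 1177 and 1556 in LD, and 1350, 833, 1305, 1184 and 1010 in HD. HD replicate 2, at 833, was the lowest of the 30 mice, and HD replicate 5 was also below every Ctr mouse. With selenium they were 1242, 1123, 1271, 1125 and 1200 in Se_Ctr, 1176, 1419, 1126, 1221 and 1236 in Se_LD, and 1195, 1184, 1254, 1151 and 1167 in Se_HD. The Se_HD mice lay wholly inside the range of the Se_Ctr mice. The log2 fold change was −0.18 for HD against Ctr (95% interval −0.45 to 0.09) and 0.02 for LD against Ctr (−0.25 to 0.29). It was 0.00 for Se_HD against Se_Ctr (−0.13 to 0.13) and 0.05 for Se_LD against Se_Ctr (−0.08 to 0.18). Without HD replicate 2 the HD value was −0.076, and without HD replicate 1 and LD replicate 2 it was −0.25 (−0.53 to 0.03).

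**Figure D1:**
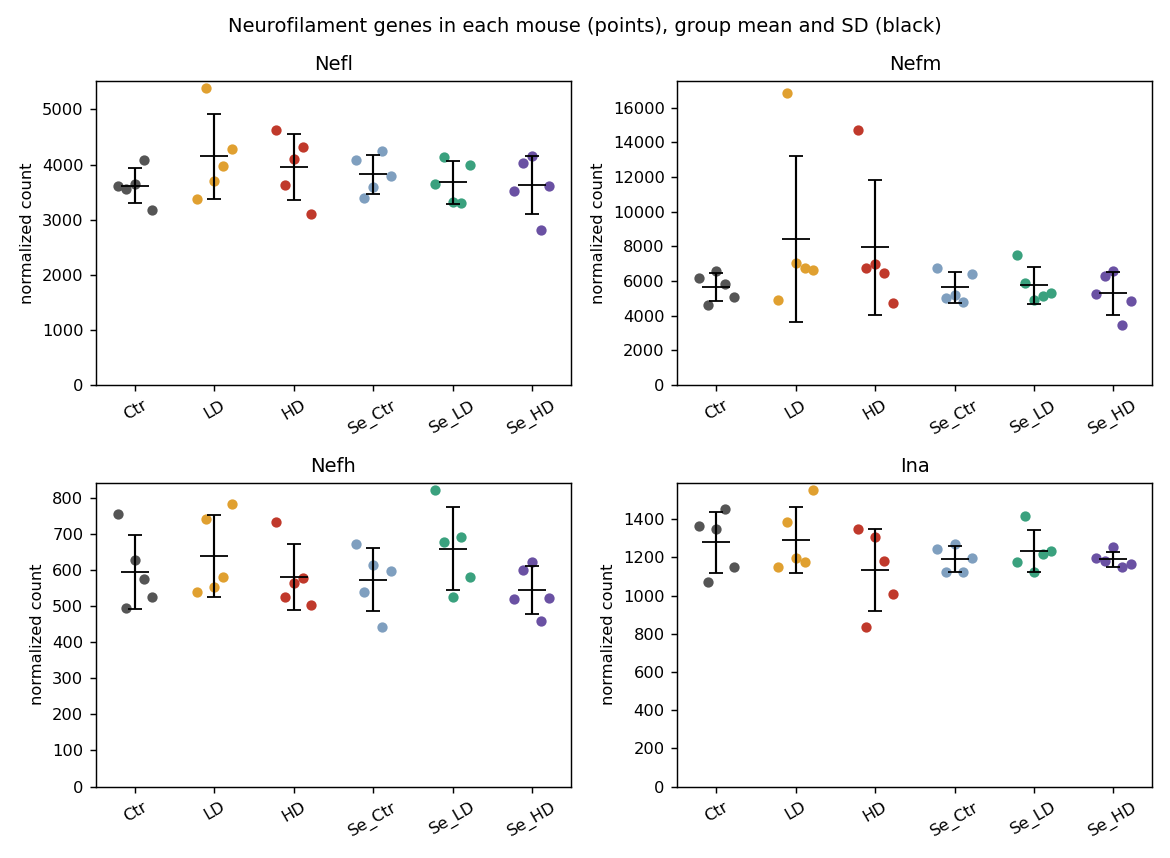
Normalized counts (vertical axes, from 0) of the 4 genes in each mouse, by group, with the group mean and SD in black (n = 5 each). LD replicate 2 and HD replicate 1 stand alone in the Nefm panel at 16862 and 14708, above the range of 3433 to 7483 of the other mice.

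A gene was called where the moderated F test over the 3 groups of a diet and the contrast both had an unadjusted p under 0.05. In HD against Ctr 0 of 4 members were called, against 5.09% of the 20031 genes tested by the same rule. In LD against Ctr 0 of 4 were called, against 1.46% of genes. In Se_HD against Se_Ctr 0 of 4 were called (2.06% of 19679 genes), and likewise in Se_LD against Se_Ctr (1.46%). HD against LD (4.49%) and Se_HD against Se_LD (2.47%) also gave 0 of 4. The same 6 counts were 0 of 4 with edgeR and with DESeq2 on the recovered reads. The lowest Benjamini-Hochberg adjusted p of a member in these 6 comparisons by limma was 0.779. The intervals do not exclude modest changes. For HD against Ctr they reach a log2 fold change of 0.38 for Nefl, 0.95 for Nefm, −0.31 for Nefh and −0.45 for Ina.

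The 4 members were also compared between groups mouse by mouse, 5 against 5, with exact permutation tests (two-sided) in 9 pairwise comparisons. Of these 36 tests 0 had a p under 0.05, and the lowest p was 0.0952, where the smallest p that the design can give is 0.00794. Across all groups together the limma F test gave an adjusted p of 0.997 for Nefl, 0.846 for Nefm, 0.986 for Nefh and 0.992 for Ina. The unadjusted p was lowest for Nefm, at 0.112, while 6.91% of 21383 genes had one under 0.05. Without LD replicate 2 and HD replicate 1 that of Nefm was 0.529.

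Selenium was compared with no selenium at each dose in 1 fit over the 30 libraries, where a call needs only the contrast. In Se_Ctr against Ctr 0 of 4 members were called (4% of 21383 genes), and in Se_LD against LD 0 of 4 (2.86%). For Se_LD against LD, Nefm was called by edgeR (log2 fold change −0.54, unadjusted p = 0.0333, adjusted p = 0.999) and by DESeq2 (−0.55, unadjusted p = 0.0488, adjusted p = 1). By limma Nefm was at −0.43 in Se_LD against LD, and at −0.14 (95% interval −0.47 to 0.18) without HD replicate 1 and LD replicate 2. In Se_HD against HD 1 of 4 was called, against 8.38% of genes. It was Nefm, at a log2 fold change of −0.51 (95% interval −0.998 to −0.026), with an unadjusted limma p of 0.0396 and an adjusted p of 0.565. The call was lost without HD replicate 1, and also without any of Se_HD replicates 1, 4 and 5. Without HD replicate 1 and LD replicate 2 the value was −0.26 (−0.59 to 0.07), with an unadjusted limma p of 0.114. Over all doses Nefm was −0.32 with selenium (−0.60 to −0.04), with an unadjusted limma p of 0.0284 and an adjusted p of 0.75, and 6.62% of genes were called. Without the pair of mice it was −0.14 (−0.32 to 0.05), with an unadjusted p of 0.141. Neither Nefm result passed the correction over all genes, and in the exact test of Se_HD against HD the p was 0.143.

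The effect of the high dose was also compared between diets. The difference of the HD effects, with selenium minus without, was −0.50 for Nefm on the log2 scale (95% interval −1.19 to 0.18). It was −0.25 (−0.70 to 0.20) without the pair of mice. The other members lay between −0.21 and 0.18, and 0 of 4 were called (4.77% of genes). The same difference for the low dose gave 0 of 4 (3.75%). Averaged over both diets, HD gave 0 of 4 (9.09%) and LD 0 of 4 (2.69%).

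**Figure D2:**
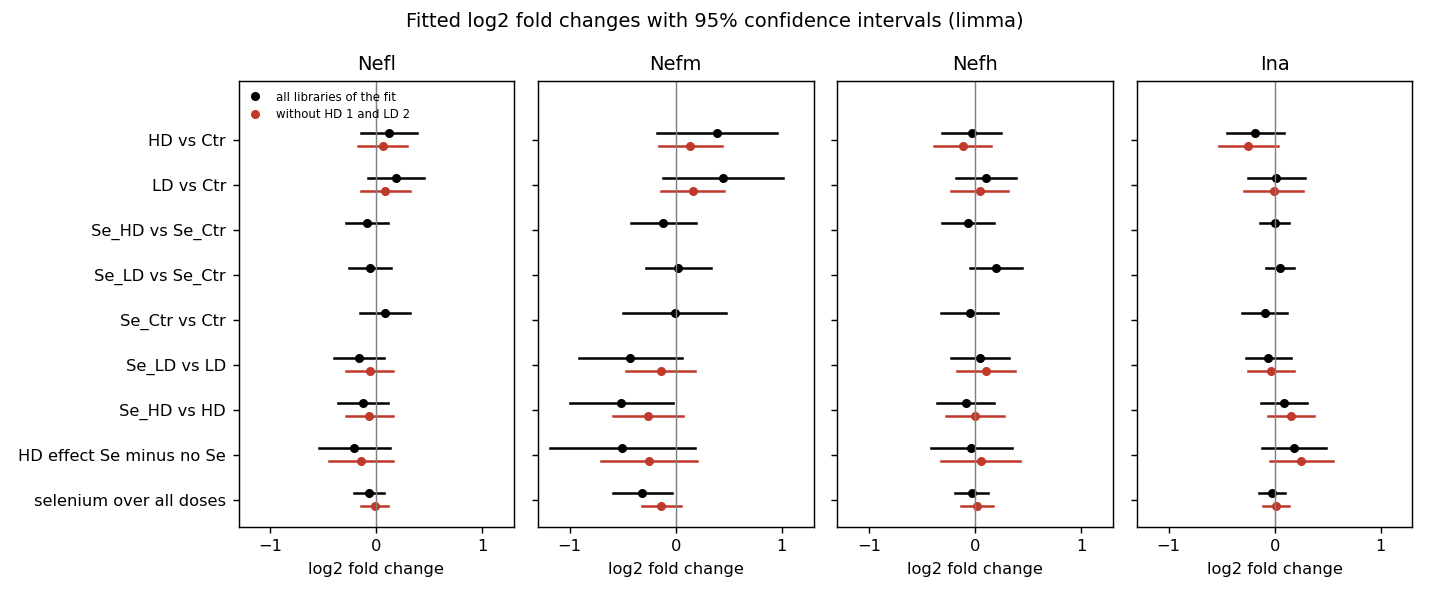
Fitted log2 fold changes (horizontal axes) of the 4 genes in 9 comparisons with their 95% confidence intervals, with all libraries of the fit in black and without LD replicate 2 and HD replicate 1 in red. The Nefm intervals of Se_HD against HD and of selenium over all doses exclude 0 in black and span it in red.

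The 2 mice with high Nefm were then compared with the other 4 of their own group, gene by gene. The pair was picked by its Nefm, so the Nefm values are a description. The log2 excess of Nefm was 1.43 in LD replicate 2 and 1.26 in HD replicate 1. It was 0.50 and 0.30 for Nefl, 0.29 and 0.44 for Nefh, and 0.13 and 0.34 for Ina. Thus each member was higher in these mice than the mean of its group's other mice. The order of the members by purine-rich extent was that of their excess in LD replicate 2 but not in HD replicate 1, where Nefl was lowest.

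The excess of other genes was also read by purine-rich extent. Among 9129 other genes with a coding transcript and averaging 100 normalized counts or more, 7914 had no purine-rich window and a median excess of −0.01, as the mean of both mice. The median was 0.10 in 779 genes with 1 to 99 such bases and 0.21 in 332 genes with 100 to 199. It was 0.35 in 76 genes with 200 to 299 bases and 0.55 in 20 genes with 300 to 499. In the 8 genes with 500 or more it was 0.73, and 100% of them were above 0. Nefl and Nefh lay within the quartiles of their classes, at 0.40 and 0.36 as the mean of both mice. Nefm at 1.34 lay above the upper quartile of 0.89 of its class, and Ina at 0.24 above the upper quartile of 0.17 of the genes with none.

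**Figure D3:**
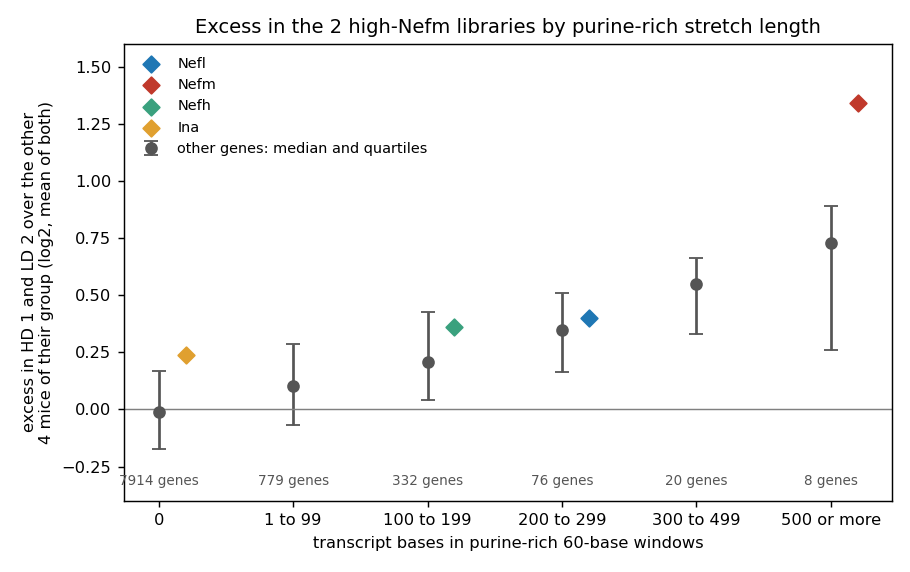
Log2 excess in LD replicate 2 and HD replicate 1 over the other 4 mice of their group (vertical axis, mean of both) by the number of transcript bases in purine-rich windows (horizontal axis, 6 classes). Grey points and bars are the median and quartiles of other genes, rising from −0.01 to 0.73, and diamonds are the 4 neurofilament genes.

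A score was made from the 104 other genes with at least 200 purine-rich bases, as the mean of their log2 values less each gene's own mean. It was 0.41 in HD replicate 1 and 0.39 in LD replicate 2, and it ran from −0.18 to 0.12 in the other 28 libraries. The lowest score was that of Se_HD replicate 4, the mouse with the lowest Nefl and Nefm. With this score as a covariate, the Nefm log2 fold change was 0.12 for HD against Ctr and −0.11 for Se_HD against HD, with unadjusted limma p of 0.491 and 0.495. The covariate was chosen after the data were seen, and it marks the same 2 mice that were picked by their Nefm. This fit therefore cannot tell the stretches from anything else that sets those mice apart. The part of the stretches themselves in the Nefm levels was not tested. Cell type markers of the pair were read in the same way. Their median excess over both mice was 0.01 for 10 pan-neuronal markers, 0.07 for 12 parvalbumin interneuron markers and 0.07 for 10 hippocampal neuron markers. The summed pan-neuronal level, at 95241 in LD replicate 2 and 93236 in HD replicate 1, was nevertheless the highest of the 30 libraries in these mice, followed by 90380. The total of normalized counts over all genes was also high in these libraries, at 9.69e+06 and 9.60e+06, below only 9.81e+06 in Ctr replicate 2. The sums given here were not scaled to that total. The summed level of 12 axonal cytoskeleton genes was also highest in the pair, at 86716 and 87888 and followed by 82064, with a median excess of 0.22 and 0.20. Across the other lists it ran from −0.77 for 5 erythrocyte markers to 0.72 for 10 choroid plexus markers. The choroid plexus median was 0.93 in HD replicate 1 and 0.52 in LD replicate 2. The median of 10 thalamus markers was −0.12 and −0.65, and that of 6 endothelium markers −0.16 and −0.20. Other lists stood apart in HD replicate 1 and less so in LD replicate 2, with medians of 0.59 and −0.064 for 10 neocortex and subiculum markers, −0.52 and −0.0031 for 12 microglia markers and −0.89 and −0.062 for erythrocyte markers.

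**Figure D4:**
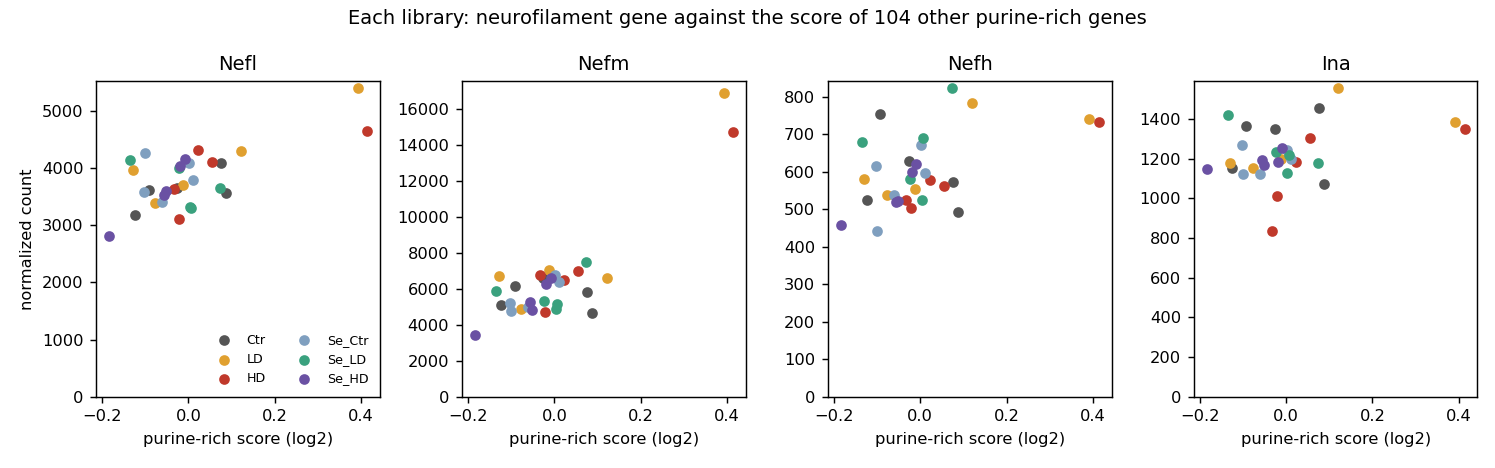
Normalized counts (vertical axes, from 0) of the 4 genes against the purine-rich score of 104 other genes (horizontal axes, log2) in the 30 libraries, coloured by group. LD replicate 2 and HD replicate 1 lie at scores of 0.39 and 0.41, apart from the other libraries, which end at 0.12.

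Ratios between subunits within a mouse do not depend on library scaling. The log2 ratio of Nefm to Nefl was 1.65 in LD replicate 2 and 1.67 in HD replicate 1, against 0.16 to 1.04 in the other 28 mice. The group means were 0.64 ± 0.19 in Ctr, 0.90 ± 0.44 in LD and 0.90 ± 0.44 in HD (SD, n = 5 each). Without LD replicate 2 and HD replicate 1 they were 0.71 ± 0.17 and 0.71 ± 0.15 (SD, n = 4 each). HD against Ctr had an exact permutation p of 0.27, and LD against Ctr had the same p. The log2 ratio of Nefh to Nefl ran from −3.27 to −2.15 over the 30 mice, and HD differed from Ctr by −0.15 (exact permutation p = 0.222).

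Of the 3 ratios to Nefl, that of Ina had the lowest p in HD against Ctr, and ratios that leave out Nefl, such as Ina to Nefm, were not tested. Its log2 ratios were −1.40, −1.73, −1.43, −1.49 and −1.47 in Ctr and −1.78, −2.12, −1.65, −1.87 and −1.62 in HD. The groups overlapped through Ctr replicate 2, with 3 of 5 HD mice below every Ctr mouse. The means were −1.50 ± 0.13 and −1.81 ± 0.20 (SD, n = 5 each), a difference of −0.30 with an exact permutation p of 0.0238. Over the 15 ratio tests the Benjamini-Hochberg adjusted p was 0.357, so it failed the correction. LD lay between, at −1.67 ± 0.19, and differed from Ctr by −0.17 (exact permutation p = 0.151). With selenium the ratio of Se_HD differed from Se_Ctr by 0.09 (exact permutation p = 0.484). Se_Ctr itself differed from Ctr by −0.17 (exact permutation p = 0.103). Nefl, the denominator, carries the overlap with Nefm described above.

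**Figure D5:**
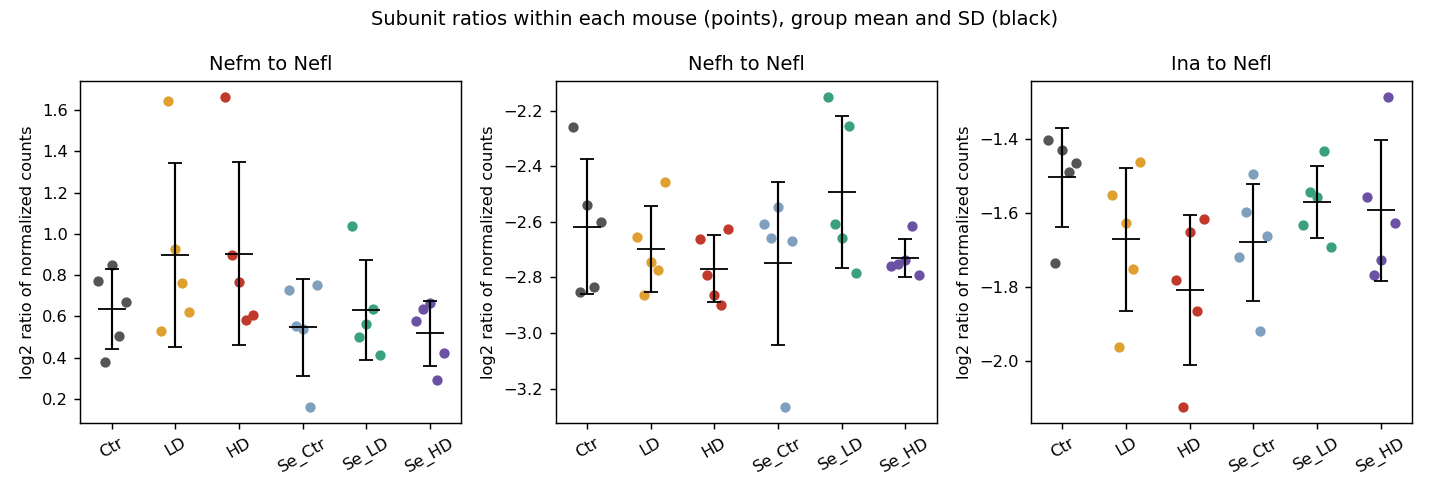
Log2 ratios (vertical axes) of Nefm, Nefh and Ina to Nefl in each mouse by group, with the group mean and SD in black (n = 5 each). In the Ina panel 3 of 5 HD mice lie below all Ctr mice, and in the Nefm panel LD replicate 2 and HD replicate 1 stand alone at 1.65 and 1.67.

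The members were only partly alike across mice. The mean log2 level of the 4 genes was 10.95 ± 0.16 in Ctr, 11.13 ± 0.31 in LD, 11.02 ± 0.30 in HD, 10.93 ± 0.13 in Se_Ctr, 10.98 ± 0.15 in Se_LD and 10.86 ± 0.20 in Se_HD (SD, n = 5 each). As a description over 30 libraries, which share their treatment groups, Pearson's r of log2 values was 0.79 for Nefl with Nefm and 0.64 for Nefm with Nefh. It was 0.62 for Nefh with Ina, 0.50 for Nefl with Ina, 0.48 for Nefl with Nefh and 0.36 for Nefm with Ina. In the 28 libraries without the pair of high-Nefm mice, Nefl with Nefm was at 0.66 and Nefm with Ina at 0.25.

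Of 9269 other genes averaging 100 normalized counts or more, with or without a coding transcript, the 10 most like the mean of the 4 members were Tmem127, Scrt1, Secisbp2l, Spop, Zbtb7a, Tspyl1, Aplp2, Hnrnpul2, Elavl3 and Zc3h15. Their r with that mean was 0.80 to 0.86 over 30 libraries, 0.79 to 0.85 after group means were subtracted, and 0.64 to 0.76 without the pair. Of the 10, 5 held purine-rich bases, while 7914 of the 9129 genes with a coding transcript at this level held none. The log2 excess in the pair, as the mean of both mice, was 0.38 to 1.17 in these 5. It was 0.38 to 0.96 in those of the 10 without such bases, highest in Hnrnpul2. Elavl3, a neuronal RNA-binding protein of the Hu family, held 363. Aplp2, a relative of the amyloid precursor protein, held 69. Nefl was most like Nptx1, a secreted neuronal pentraxin (r = 0.87), Grm7, a metabotropic glutamate receptor (0.83), and Cadm3, an adhesion molecule (0.82). Nefm was most like Ncl, which encodes nucleolin (0.92), Hnrnpul2 (0.91) and Cdk11b, a cyclin-dependent kinase (0.91). Without the pair of mice these fell to 0.69 to 0.74. Nefh was most like Scrt1 (0.74), Fam101b (0.73) and Rcan2, a calcineurin regulator (0.71). Ina was most like Rcan2 (0.77), R3hdm2 (0.76) and Epha5, an ephrin receptor (0.76).

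Genes that work on neurofilaments were counted in 5 lists, and 6 names were matched through the older names in the annotation. Among 8 other intermediate filament genes, 2 rose in HD against Ctr by the unadjusted rule, where 3.36% of genes rose and 1.73% fell. Gfap, the filament of astrocytes, rose from 1722, 1673, 1988, 1430 and 1930 normalized counts in Ctr to 5143, 32820, 4080, 7281 and 12446 in HD. The groups did not overlap, which held for 1.71% of genes in this comparison, and the log2 fold change was 2.39 ± 0.35 (SE) with an adjusted limma p of 0.00716. Vim, the filament of reactive glia and vessels, was at 190, 3548, 231, 440 and 426 in HD against 204 to 274 in Ctr. HD replicate 2 stood far above the others, and the log2 fold change of Vim was 1.09 ± 0.48 (SE; limma adjusted p = 0.541). Without HD replicate 2 it was 0.38 ± 0.21 (SE) and not called, and that of Gfap was 1.93 ± 0.21 (SE) and called. By this alternative, which was chosen after seeing the data, 3.63% of genes were called. With selenium, 1 of 8 rose in Se_HD, where 1.28% of genes rose. It was Gfap, at 2264, 2499, 2491, 2909 and 2546 against 1950, 1637, 1610, 2165 and 1596 in Se_Ctr, with a log2 fold change of 0.51 ± 0.12 (SE; limma adjusted p = 0.728).

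Of 11 motor and linker genes, 2 fell in HD against Ctr and 0 rose. Kif5a, the neuronal kinesin heavy chain that carries neurofilaments along axons, was at 16635, 14019, 16186, 15878 and 14678 in Ctr and 12737, 8211, 12029, 11438 and 12285 in HD. Every HD mouse was below every Ctr mouse, and the log2 fold change was −0.46 ± 0.13 (SE; limma adjusted p = 0.185). Kif5b, the ubiquitous kinesin of the same family, averaged 1944 ± 190 in HD and 2469 ± 266 in Ctr (SD, n = 5 each), a log2 fold change of −0.34 ± 0.11 (SE; limma adjusted p = 0.292). Without LD replicate 2 and HD replicate 1 its log2 fold change was about the same, at −0.31 ± 0.12 (SE), but the F test had a p of 0.055 and it was not called. That of Kif5a was −0.51 ± 0.13 (SE) and called. In Se_HD against Se_Ctr 1 of 11 fell, where 0.777% of genes fell. It was Kif5a again, at 13135, 13266, 12406, 12273 and 12748 against 15360, 14948, 15861, 15839 and 15657, and the groups did not overlap (0.798% of genes). Its log2 fold change there was −0.28 ± 0.07 (SE; limma adjusted p = 1.00).

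Of 11 turnover and messenger-binding genes, 2 rose in HD against Ctr and 0 fell. Hspb8, a small heat shock protein of chaperone-assisted autophagy, averaged 149 ± 59.6 in HD and 74.3 ± 21.4 in Ctr (SD, n = 5 each), a log2 fold change of 0.95 ± 0.24 (SE; limma adjusted p = 0.133). Hspb1, a small heat shock protein that binds intermediate filaments, was at 22.9, 153, 20.1, 11.3 and 14.2 in HD and 3.84 to 27.8 in Ctr. HD replicate 2 stood alone. The log2 fold change of Hspb1 was 1.32 ± 0.58 (SE), and without the high-Nefm pair it was 1.37 ± 0.64 (SE) and not called, with a limma F test p of 0.0987. Without HD replicate 2 it was 0.69 ± 0.47 (SE) and not called. The calpain gene Capn2 was called only without the pair, at 0.28 ± 0.12 (SE) against 0.26 ± 0.12 (SE) with it. In Se_HD against Se_Ctr 1 of 11 rose, which was Hspb8, at 95.5 ± 20.5 against 63.2 ± 13.6 (SD, n = 5 each; log2 fold change 0.59 ± 0.22, SE; limma adjusted p = 1.00).

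Of 13 kinase and phosphatase genes, among them Cdk5 and Gsk3b, whose enzymes phosphorylate neurofilament tails, 0 were called in either direction in HD, LD, Se_HD and Se_LD against their controls. Without HD replicate 2 only Cdk5 was called in HD, with a log2 fold change of 0.25 ± 0.11 (SE) against 0.20 with all mice. In the full set of mice 0 were likewise called of 12 axonal cytoskeleton genes, among them Mapt and Map2, which encode microtubule-associated proteins. In LD and Se_LD 0 genes of any of the 5 lists were called. The median log2 fold change in HD against Ctr was −0.06 for kinases and phosphatases, −0.09 for motors and linkers, 0.21 for turnover genes, 0.13 for other filaments and 0.00 for cytoskeleton genes. It was 0.01 over all genes tested.

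Marker levels of several cell types moved in HD and are given beside the members. All 12 microglia markers rose in HD against Ctr by the unadjusted rule, where 3.36% of genes rose and 1.73% fell. Of these markers 6 had an adjusted p under 0.05, and 0 did in the other lists named here for HD. The summed microglia level was 3832 to 9625 in HD against 2958 to 3284 in Ctr. Without HD replicate 2, 11 of 12 rose, where 3.63% of all genes were called. Of 12 parvalbumin interneuron markers, 6 fell and 0 rose, with 4 fallen without HD replicate 2 and 8 without the high-Nefm pair, where 5.75% of all genes were called. Their summed level was 10357 to 13762 in HD against 14197 to 17077 in Ctr. Of 10 pan-neuronal markers 1 fell, and the summed level was 60989 to 93236 in HD against 78379 to 87485 in Ctr. The lowest pan-neuronal level was that of HD replicate 2, the mouse with the lowest Ina and the highest Gfap. Of 8 astrocyte markers 3 rose and 0 fell, 1 rose without HD replicate 2, and the summed level was 51778 to 57974 in HD against 44127 to 54984 in Ctr. Of 10 neocortex and subiculum markers 3 fell and 0 rose, 2 fell without HD replicate 2, and without the high-Nefm pair 4 fell and 1 rose. Their summed level was 3466 to 4803 in HD against 3554 to 4386 in Ctr. Of 10 choroid plexus markers 0 were called, with a median log2 fold change of 1.45 and a summed level of 7110 to 29818 in HD against 838 to 31695 in Ctr. In the selenium diet 0 of 12 microglia markers were called in Se_HD. The part of these marker shifts in the members' values was not tested.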

How the data were processed

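Hippocampus RNA of 30 mice was sequenced as stranded single-end libraries of messenger RNA. The submitters' processing notes name Trim Galore 0.4.2, FastQC, HISAT2, the NCBIM37 build, featureCounts and DESeq2. The deposited values are a signal, read counts that the authors divided by 1 DESeq2 size factor per library. Whole reads were recovered for 100% of values (tolerance 0.01), and the factors equal the median-of-ratios factors of the 30 libraries. Replicates are numbered by accession within a group. Replicate pairs differed by more than sampling noise (chi-square per degree of freedom 3.65 to 80.8 over 60 pairs). The pairs with Ctr replicate 2 stood apart at 75.2 to 80.8, and the highest other pair was HD replicates 1 and 2 at 50.5. Ctr replicate 2 also had the fewest reads on genes, at 5768208.

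Values were tested as log2(normalized count + 1), with genes under a sum of 10 left out, by limma 3.58.1 with trend in R 4.3.3. The groups of 1 diet were fitted together (15 libraries), and comparisons across diets used 30. A gene was called at an unadjusted p under 0.05, within a diet for the F test and the contrast. Benjamini-Hochberg p-values cover all genes tested. Fold changes are on the log2(value + 1) scale. Member values and ratios had exact permutation tests. Alternatives were count tests of the recovered reads (edgeR 4.0.16, DESeq2 1.42.0), other pseudocounts, filters and scalings, and leaving out each mouse. The fit was tested on simulated data. Genes named are the members, list genes called in HD or Se_HD, and the genes most correlated with the members. Other genes named were chosen after their values were seen. Members and lists were chosen with earlier results of these data known. Proteins are not analysed here.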

Additional observations from a re-analysis of the deposited data

Results flagged for a closer look

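In 42 sets of 5 mice (4 genes and 3 ratios in 6 groups), 4 sets held a mouse far from the others, by the gap to its nearest neighbour as a share of the group's range, against a 95% critical value of 0.71. Chance gives about 1 in 20 sets, or 2.1. The share was 0.819 for Nefm in LD replicate 2 and 0.775 for Nefm in HD replicate 1, both the highest of their group. It was 0.827 for the Nefh to Nefl ratio in Se_Ctr replicate 4 and 0.737 for the Ina to Nefl ratio in Ctr replicate 2, both the lowest of their group.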

How the results depend on the processing

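The 56 fitted member results (4 genes, 14 comparisons) were refitted under 1476 alternatives. Of these, 1456 kept the side of the threshold, 13 lost a call and 7 gained one, and the lowest adjusted p was 0.411. The sign changed in 78, none of them called. The labels number the libraries and share no replicate number between groups. Each set of 6 consecutive library numbers holds 1 library of every group, and with the set as a covariate (a block) 0 of the 56 results changed side, while calls in HD against Ctr numbered 989 rather than 1019. Nefm in Se_HD against HD (−0.51) was no longer called without trend in limma (−0.51), with those groups compared alone (−0.51), without both high-Nefm mice (−0.26), or with the purine-rich score as a covariate (−0.11). Leaving out 1 mouse at a time gave −0.67 to −0.26, and the call was lost without HD replicate 1 or Se_HD replicates 1, 4 or 5. Nefm with selenium over all doses (−0.32) was not called with the score as a covariate (−0.086) or without both mice (−0.14). Leaving out single mice gave −0.37 to −0.22, and the call was lost without LD replicate 2, HD replicate 1 or Se_HD replicate 4. Leaving out both mice and the score as a covariate were chosen after seeing the data. Nefm in Se_LD against LD (−0.43) was called by edgeR (−0.54) and DESeq2 (−0.55), and over single mice left out it ran from −0.59 to −0.14, called without LD replicate 1 or Se_LD replicate 1. Over single mice left out, Nefh ran from 0.11 to 0.28 in Se_LD against Se_Ctr and from −0.35 to −0.18 in Se_HD against Se_LD, and both were called without Se_LD replicate 3. Nefh in LD over both diets ran from 0.11 to 0.20 and was called without Ctr replicate 1.

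Of 165 alternatives for 15 ratio results, 162 kept the side of the threshold. The Nefh to Nefl ratio in Se_HD against Se_Ctr ran from −0.11 to 0.070 over single mice left out, and it turned to −0.11 (exact permutation p = 0.0476) without Se_Ctr replicate 4. The Ina to Nefl ratio ran from −0.22 to −0.094 in LD against Ctr and from −0.23 to −0.11 in Se_Ctr against Ctr, and both passed 0.05 without Ctr replicate 2. The cause of these changes was not tested. Over all genes, a mean of at least 10 counts lowered the calls in LD against Ctr from 292 to 137, and fitting 30 libraries together lowered those in Se_HD against Se_Ctr from 405 to 221. Adjusted calls in HD against Ctr numbered 26 by limma, 45 by edgeR, 197 by DESeq2, 200 with 30 libraries in 1 limma fit and 0 without trend. Leaving out 1 mouse gave 3 (Ctr replicate 4) to 76 (HD replicate 3), with 57 without HD replicate 1 and 11 to 16 or 4 (HD replicate 5) without the others, so that each of the 10 mice moved it by over 1.5 times. The lowest member value was 442 normalized counts, and how far counting error sets the intervals was not tested.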
